A study of Mus musculus with 4 samples.

Results

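The mitochondrial ribosomal protein genes were taken as every gene model with a RefSeq protein-coding transcript and a symbol that starts with Mrpl or Mrps followed by a number. The rule found 77 of the 24625 gene models, 48 Mrpl genes of the large subunit and 29 Mrps genes of the small subunit. RNA came from thioglycollate-elicited peritoneal macrophages of C57BL/6 mice, given as C57BL/6J in the design text, that were fed a high-fat diet with 60% of its energy as fat for 12 weeks, or a control chow for the same time. All mice, on both diets, had received 3% thioglycollate, an irritant that draws macrophages into the peritoneal cavity, 4 days before the cells were collected. Each diet had 2 libraries of total RNA depleted of ribosomal RNA. The labels do not say whether libraries came from separate mice or from pools, so p-values measure only the spread between these libraries, which may be technical.

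Mitochondria make a small set of hydrophobic subunits of the respiratory chain and of ATP synthase on ribosomes of their own. The RNA of these ribosomes is encoded by mitochondrial DNA, whereas every protein is encoded in the nucleus, made in the cytosol and imported. The small subunit reads the messenger RNA and the large subunit forms the peptide bond. Many of the proteins descend from bacterial ribosomal proteins, and the others were added during the evolution of mitochondria.

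Counts assigned to genes totalled 45658551 and 40527591 in the high-fat libraries, against 39846646 and 39347347 in the control libraries. All 77 genes passed the filter on low counts, which kept 12747 genes in all, with 109 to 3873 reads per gene and library. They lay on 17 chromosomes, none was a single-exon gene, and their exons together covered 407 to 6712 bases per gene with a median of 1053. They took 0.237% and 0.234% of the gene counts in the high-fat libraries, against 0.206% and 0.230% in the control libraries. Levels are given as CPM, counts scaled to the effective total of their library. Between single genes they are compared as CPM per kilobase of exon, whereas sums over several genes are in CPM and not scaled by length. Coordinates of genes are those of the mm9 gene models.

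The control libraries differed from each other about as much as the diets did. Control library 2 was above control library 1 for 60 of the 77 genes, 77.9% against 48.7% of all kept genes, and control library 1 was the lowest of the 4 libraries for 51 of them. The median difference of control library 1 minus control library 2 was -0.16 on the log2 scale, against 0.00 for high-fat library 1 minus high-fat library 2. The same difference within the control group was -0.16 among cytosolic ribosomal protein genes and -0.17 among nuclear subunits of oxidative phosphorylation, so it was not limited to the mitochondrial ribosome. The medians of the members and of the subunits are therefore also given without each control library.

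No mitochondrial ribosomal protein gene passed an adjusted p of 0.05 between the diets, in edgeR's quasi-likelihood test with Benjamini-Hochberg adjustment over all 12747 genes. In the same fit 0.322% of all genes passed as higher and 0.29% as lower, 0.612% in either direction. The smallest adjusted p of a member was 0.178, that of Mrpl51. DESeq2 and limma-voom called 0 members as well. At an unadjusted p under 0.05 in edgeR, 10 members were higher and 1 was lower, where 8.56% of all genes were higher and 8.46% lower, 17.0% in either direction. The corresponding count in either direction was 9 members in limma-voom, where 16.5% of all kept genes reached that level. In DESeq2 it was 6 members, where 1644 of the 12747 kept genes did. DESeq2 was run without the filter, and its share over all 17380 genes with a count was 9.76%.

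The fold changes were small and narrowly spread. The median log2 fold change, high-fat over control, was 0.10 over all members, and -0.01 over all kept genes. A value above 0 was found for 57 of the 77 members, 74.0%, against 49.2% of all kept genes. The 2 high-fat libraries were both above the 2 control libraries for 34 members, 44.2% against 26.1% of all genes, and both below them for 6 members, 7.79% against 24.9%. The shares in either direction, 51.9% of members and 51.0% of all genes, were nearly equal. No member had a log2 fold change larger than 0.5 in size, a size that 13.4% of all genes exceeded. All kept genes had a lower median level, 5.20 CPM per kb against 18.1 in the members. Of 77 kept cytosolic ribosomal protein genes 7 exceeded that size, and of 77 kept nuclear oxidative phosphorylation subunits 4 did. The standard errors of the members ran from 0.09 to 0.23, with a median of 0.12. The 95% intervals of all 77 members lay within 1 log2 unit of 0 and those of 55 members within 0.5, and 66 of the intervals included 0. Since reads were taken from whole samples, a smaller share of cells of a type and less RNA per cell cannot be told apart in any of these values.

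The size of this shift depended on which control library was used. Without control library 1 the median over all members was 0.04 and 46 members stood above 0. Without control library 2 the median was 0.16 and 62 members stood above 0. In both of these fits no member passed the adjusted threshold.

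**Figure D1:**
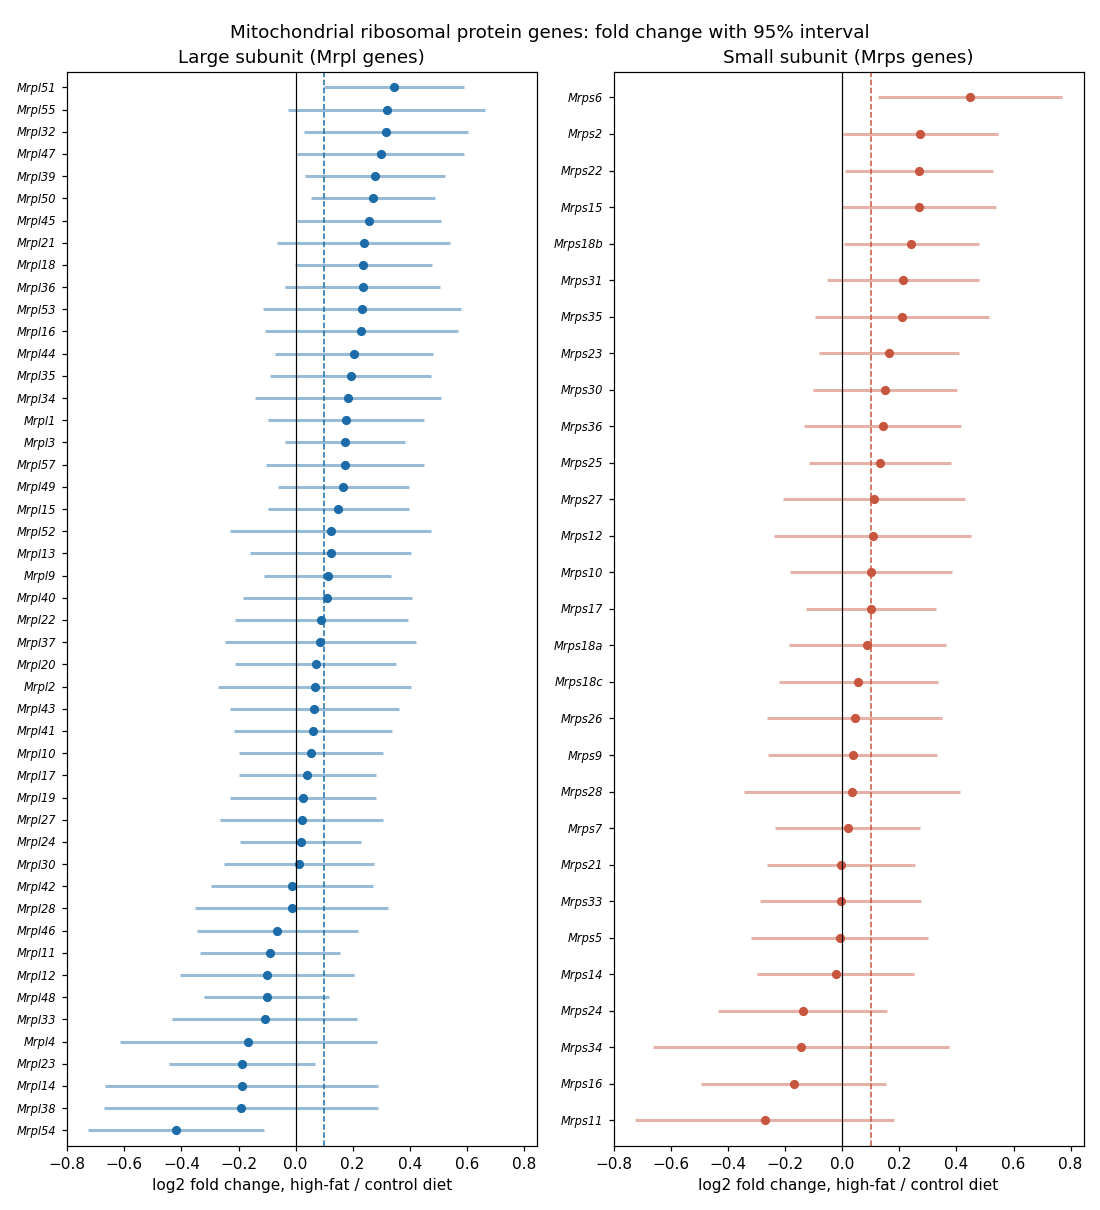
Log2 fold change, high-fat over control diet, of each Mrpl gene (left) and each Mrps gene (right), with bars for the 95% interval and a dashed line at the median of the subunit. All 77 intervals lie within 1 log2 unit of 0, and both dashed lines stand at 0.10.

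The large and the small subunit had the same median. It was 0.10 for the 48 large subunit genes, with quartiles of 0.01 and 0.21, and 0.10 for the 29 small subunit genes, with quartiles of -0.01 and 0.16. The difference of the medians, large minus small, was -0.0002, where the standard deviation of this difference between replicates was 0.05. Of the large subunit genes 36 were above 0, and at an unadjusted p under 0.05 6 were higher and 1 was lower. Of the small subunit genes 21 were above 0, and at that level 4 were higher and 0 lower in edgeR. Over all kept genes 8.56% were higher and 8.46% lower at that level. Without control library 1 the medians were 0.03 for the large and 0.04 for the small subunit, and without control library 2 they were 0.17 and 0.14.

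Summed over genes, large subunit transcripts reached 1590 and 1627 CPM in the high-fat libraries, against 1387 and 1596 CPM in the control libraries. The small subunit sums were 738 and 748 CPM in the high-fat libraries, against 657 and 733 CPM in the control libraries. The large subunit sums overlapped, with control library 2 between the high-fat libraries, and the small subunit sums did not, with control library 2 close beneath the high-fat libraries. Control library 1 was well below the other libraries in both sums. The large subunit sum averaged 1609 ± 26.1 CPM with high-fat diet and 1492 ± 148 CPM with control diet (SD, n = 2 each), and the small subunit sum averaged 743 ± 7.09 CPM with high-fat diet and 695 ± 53.6 CPM with control diet. The difference between the diets was thus smaller than the standard deviation of the control libraries for both subunits.

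The balance of the subunits was nearly the same in every library. The ratio of the large to the small subunit sum was 2.15 and 2.17 in the high-fat libraries and 2.11 and 2.18 in the control libraries, so the control values enclosed those of the high-fat libraries. Per kilobase of exon, the mean large subunit level over the mean small subunit level was 1.23 ± 0.0167 with high-fat diet and 1.24 ± 0.0328 with control diet (SD, n = 2 each). Control library 1, the lowest in both sums, was low for both subunits together: its median deviation from the mean of the 4 libraries was -0.14 among large and -0.08 among small subunit genes on the log2 scale.

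**Figure D2:**
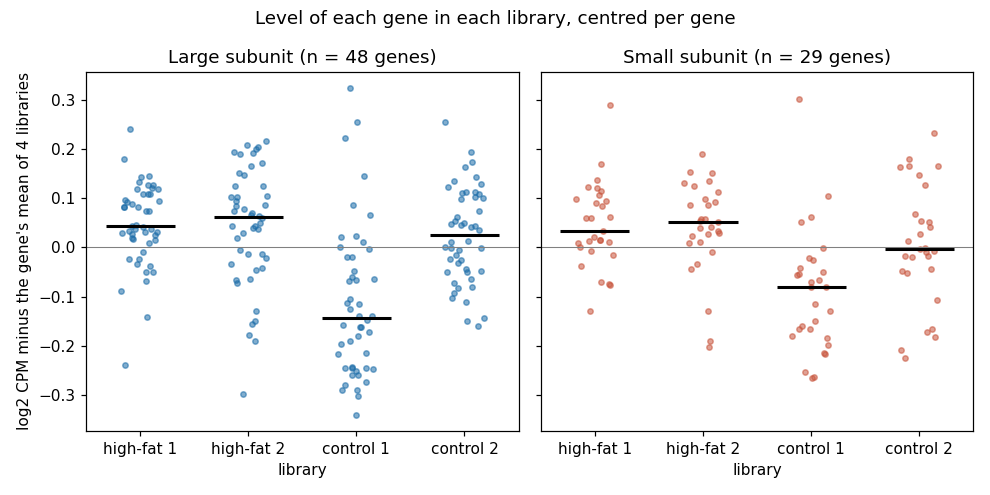
Log2 CPM of each gene in each library minus that gene's mean over the 4 libraries, for 48 large subunit genes (left) and 29 small subunit genes (right), with a bar at each median. Control library 1 has the lowest median in both subunits, and the other 3 libraries lie close to one another.

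Among large subunit genes, the highest fold change was that of Mrpl51 on chromosome 6 (125142218 to 125144410, plus strand, 3 exons), which encodes a protein with no bacterial counterpart. Mrpl51 had 60.6 and 60.3 CPM in the high-fat libraries, against 43.4 and 51.8 CPM in the control libraries. The groups did not overlap, and the control libraries were the more widely spread. Its log2 fold change was 0.35 ± 0.11 (SE, n = 2 each), with an adjusted p of 0.178 in edgeR. Mrpl32, a homologue of a bacterial protein that is cut by a mitochondrial protease before it joins the ribosome, had 42.8 and 45.5 CPM with high-fat diet, against 31.1 and 39.7 CPM with control diet. Its groups did not overlap either, and the log2 fold change was 0.32 ± 0.13 (SE) with an adjusted p of 0.259 in edgeR. Mrpl51 and Mrpl32 each have a pseudogene copy, so some of their reads may have been set aside as non-unique or placed on the copy.

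The next large subunit genes were alike in size. Mrpl55, another protein specific to mitochondria, had 10.8 and 9.64 CPM with high-fat diet, against 7.70 and 8.68 CPM with control diet, and a log2 fold change of 0.32 ± 0.15 (SE). Mrpl47, the counterpart of a bacterial protein near the exit of the peptide tunnel, had 25.2 and 26.8 CPM with high-fat diet, against 19.1 and 23.1 CPM with control diet, and a log2 fold change of 0.30 ± 0.13 (SE). Mrpl39 had 55.1 and 59.8 CPM with high-fat diet, against 43.7 and 50.9 CPM with control diet, and a log2 fold change of 0.28 ± 0.11 (SE). In all 3 genes both high-fat libraries were above both control libraries, and control library 1 was the lowest.

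The lowest value of all members was that of Mrpl54, a large subunit protein specific to mitochondria, on chromosome 10 (80727467 to 80729671, minus strand, 3 exons). Mrpl54 had 9.48 and 9.89 CPM in the high-fat libraries, against 13.1 and 12.8 CPM in the control libraries. Both pairs of libraries were close together and did not overlap, so this gene did not share the low value of control library 1. Its log2 fold change was -0.42 ± 0.14 (SE, n = 2 each), the unadjusted p was 0.0133 and the adjusted p was 0.189 in edgeR. With each library left out in turn it ranged from -0.45 to -0.39.

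The other 4 large subunit genes at the low end had smaller differences. Mrpl38, which sits in the central protuberance, had 4.83 and 4.18 CPM with high-fat diet, against 5.99 and 4.30 CPM with control diet. Mrpl14, which lies at the interface of the subunits, had 2.95 and 2.73 CPM with high-fat diet, against 3.06 and 3.43 CPM with control diet. Mrpl23, a protein at the tunnel exit, had 23.9 and 22.0 CPM with high-fat diet, against 26.0 and 26.3 CPM with control diet. Of these 3 genes Mrpl14 and Mrpl23 had groups that did not overlap, and Mrpl38 did not separate them. Mrpl4, which lines the peptide tunnel, had 7.54 and 5.61 CPM with high-fat diet, against 8.25 and 6.52 CPM with control diet, which overlap. The log2 fold changes of the 4 genes ran from -0.19 to -0.17, and all 4 were above 0 once the trends with GC content and exon length were removed, with 0.02 for Mrpl38, 0.02 for Mrpl14, 0.02 for Mrpl23 and 0.05 for Mrpl4.

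Among small subunit genes the highest fold change was that of Mrps6, on chromosome 16 (92058581 to 92112472, plus strand, 3 exons), a homologue of a bacterial protein of the platform. Mrps6 had 12.6 and 11.5 CPM in the high-fat libraries, against 8.60 and 9.09 CPM in the control libraries. The groups did not overlap, and control library 1 was only slightly below control library 2. The log2 fold change was 0.45 ± 0.14 (SE, n = 2 each), the largest of all members, with an adjusted p of 0.182 in edgeR. The exons of Mrps6 share 145 bases on the same strand with Slc5a3, a gene for an inositol transporter, so its count is uncertain.

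The next small subunit genes were Mrps2, Mrps22, Mrps15 and Mrps18b, with log2 fold changes of 0.27, 0.27, 0.27 and 0.24. Mrps2, a homologue of a bacterial protein, had 23.5 and 25.3 CPM with high-fat diet, against 21.2 and 19.2 CPM with control diet. Mrps22, a protein specific to mitochondria, had 38.0 and 37.9 CPM with high-fat diet, against 28.7 and 34.3 CPM with control diet. Mrps15 had 29.4 and 30.0 CPM with high-fat diet, against 22.7 and 26.7 CPM with control diet. In these 3 genes the groups did not overlap. Control library 1 was the lower of the control libraries in Mrps22 and Mrps15, and the higher in Mrps2.

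At the low end of the small subunit stood Mrps11 on chromosome 7 (85928017 to 85937874, plus strand, 6 exons), a homologue of a bacterial protein of the platform. Mrps11 had 3.30 and 3.00 CPM in the high-fat libraries, against 3.73 and 3.89 CPM in the control libraries. The groups did not overlap, and the log2 fold change was -0.27 ± 0.20 (SE, n = 2 each) with an adjusted p of 0.513 in edgeR. Mrps16 had 15.5 and 16.5 CPM with high-fat diet, against 16.1 and 19.9 CPM with control diet, and Mrps24 had 18.03 and 16.6 CPM with high-fat diet, against 17.8 and 20.3 CPM with control diet. Mrps34, a mitochondria-specific protein, had 3.88 and 3.25 CPM with high-fat diet, against 4.60 and 3.30 CPM with control diet. The groups overlapped in these 3 genes, whose log2 fold changes were -0.17, -0.14 and -0.15. Mrps14 had 45.9 and 50.4 CPM with high-fat diet, against 43.6 and 54.3 CPM with control diet, and a log2 fold change of -0.02.

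Promoter sequences are shown for the genes at both ends of each subunit that have a single entry in the promoter table, to set the letters beside the fold changes. They are from RefSeq on GRCm38.p6, a build other than that of the counts, and run from 250 bases before to 30 bases after the start, 5′ to 3′ on the gene's strand. Capitals mark matches to a motif of NRF1, ETS factors or YY1, regulators known to bind promoters of nuclear genes for mitochondria. Mrpl51 is shown from chr6:125191950-125192229, Mrpl14 from chr17:45686099-45686378, Mrps6 from chr16:92058086-92058365 and Mrps11 from chr7:78782881-78783160, all on the plus strand.
Mrpl51: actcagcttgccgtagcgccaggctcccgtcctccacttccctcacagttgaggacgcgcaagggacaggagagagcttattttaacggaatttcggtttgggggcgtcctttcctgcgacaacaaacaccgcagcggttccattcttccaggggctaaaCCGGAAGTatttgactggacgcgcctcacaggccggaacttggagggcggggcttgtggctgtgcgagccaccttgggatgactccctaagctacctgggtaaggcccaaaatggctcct
Mrpl14: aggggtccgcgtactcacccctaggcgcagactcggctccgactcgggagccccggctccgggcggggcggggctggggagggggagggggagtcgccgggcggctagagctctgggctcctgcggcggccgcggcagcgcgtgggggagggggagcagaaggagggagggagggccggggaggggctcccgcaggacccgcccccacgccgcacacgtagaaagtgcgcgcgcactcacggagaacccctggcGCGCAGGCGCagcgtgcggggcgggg
Mrps6: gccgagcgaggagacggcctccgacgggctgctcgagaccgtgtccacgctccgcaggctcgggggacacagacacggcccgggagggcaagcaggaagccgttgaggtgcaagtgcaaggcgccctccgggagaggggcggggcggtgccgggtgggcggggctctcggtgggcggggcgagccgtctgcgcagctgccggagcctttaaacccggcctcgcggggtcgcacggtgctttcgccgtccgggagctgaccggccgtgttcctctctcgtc
Mrps11: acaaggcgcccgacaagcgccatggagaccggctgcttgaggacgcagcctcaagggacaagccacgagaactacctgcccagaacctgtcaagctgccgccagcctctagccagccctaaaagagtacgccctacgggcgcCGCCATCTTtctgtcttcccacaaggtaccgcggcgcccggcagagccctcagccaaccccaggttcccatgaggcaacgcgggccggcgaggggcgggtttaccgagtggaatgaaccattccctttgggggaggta

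The promoter of Mrpl51 held the ETS motif 90 to 83 bases before the start, and that of Mrpl14 held the NRF1 motif at bases 5 to 14 after it. Mrps11 held the YY1 motif in reverse orientation, 108 to 100 bases before the start, and Mrps6 had none of these letters in its window. The motifs searched on both strands were GCGCA followed by any base and GCGC for NRF1, CCGGAAGT for ETS factors and AAGATGGCG for YY1, in windows of 300 bases. Of the 77 members 68 matched an entry of the promoter table. NRF1 letters were found in 13 of these, 19.1%, against 11.9% of kept protein-coding genes and 5.19% of all genes of the table. ETS letters were found in 12, 17.6% against 9.57% and 4.31%, and YY1 letters in 8, 11.8% against 3.72% and 1.64%. At least 1 of the 3 was present in 31 members, 45.6% against 23.2% of kept protein-coding genes and 10.3% of all genes.

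Both subunits had each motif. NRF1 letters stood in 10 of 42 large and 3 of 26 small subunit promoters, ETS letters in 8 and 4, and YY1 letters in 4 and 4. The median log2 fold change was 0.04 for members with NRF1 letters and 0.11 for those without, 0.09 and 0.10 for ETS letters, and 0.09 and 0.11 for YY1 letters. The other motifs searched, GGGCGG for SP1, CCAAT and the E-box CACGTG, were found in 34, 27 and 5 of the 68 member promoters. SP1 letters were in 34 of 68 members, against 6383 of 9375 kept protein-coding genes, 68.1%, so here the share of members was the lower one. CCAAT was in 39.7% of members, against 43.2% of kept protein-coding genes, and the E-box in 7.35%, against 11.9%. A match is only a match of letters and says nothing of a bound factor.

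**Figure D3:**
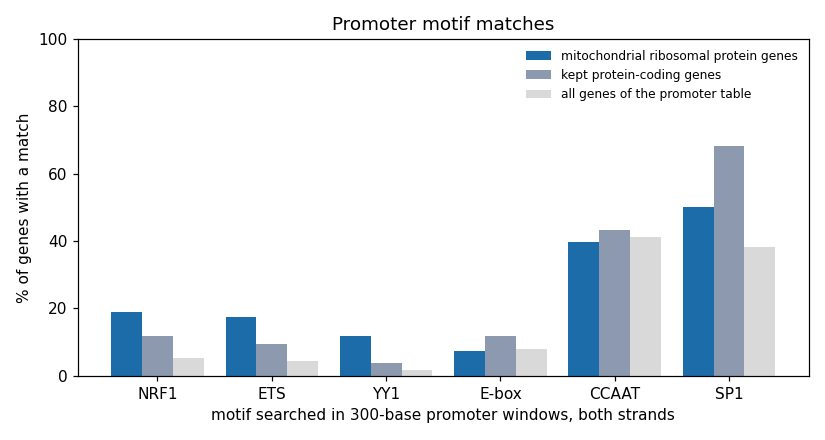
Share of promoters, in percent, that hold each motif within 300 bases, for 68 mitochondrial ribosomal protein genes, kept protein-coding genes and all genes of the promoter table. NRF1, ETS and YY1 letters stand at 19.1%, 17.6% and 11.8% in the members, above the 11.9%, 9.57% and 3.72% of kept genes.

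Many members had a neighbour that starts close by in the other direction. A gene on the opposite strand began within 1000 bases for 27 of the 77 members, or 35.1%. The share was 9.61% among all 20679 protein-coding gene models, which include those not kept. All members were kept, and the share among kept protein-coding genes alone was not computed. Of the partners 26 were kept, and edgeR called 0 of them. The median log2 fold change of the partners was -0.05, with 10 above 0, whereas 22 of the 27 members were above 0. Examples, chosen after their values were seen, are Mrpl32 at 0.32 beside Psma2, a proteasome subunit, at 0.18, and Mrpl47 at 0.30 beside Ndufb5, a subunit of complex I, at -0.02. Mrpl49 was at 0.17 beside Fau, a cytosolic ribosomal protein gene, at -0.29. In 1 case both genes were members: Mrps11 and Mrpl46 start 42 bases apart and had log2 fold changes of -0.27 and -0.06.

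Genes with a known special role or a name at odds with their place had log2 fold changes between -0.15, that of Mrps34 given above, and 0.24, that of Mrps18b. Mrpl12, a protein of the flexible stalk that has been reported to bind the mitochondrial RNA polymerase in human cells, had 14.4 and 14.4 CPM in the high-fat libraries, against 16.5 and 14.4 CPM in the control libraries. Mrpl10, which anchors the stalk, had 25.8 and 25.5 CPM with high-fat diet, against 25.6 and 23.8 CPM with control diet. The log2 fold changes were -0.10 for Mrpl12 and 0.06 for Mrpl10, and their groups overlapped. Mrpl44, a protein with a ribonuclease III fold, had 19.5 and 19.1 CPM with high-fat diet, against 17.2 and 16.3 CPM with control diet, and a log2 fold change of 0.20. Mrps12, whose bacterial homologue is the site of streptomycin resistance mutations, had 9.07 and 9.64 CPM with high-fat diet, against 8.05 and 9.33 CPM with control diet, and a log2 fold change of 0.11.

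The 3 genes named after the bacterial S18 protein, Mrps18a, Mrps18b and Mrps18c, had log2 fold changes of 0.09, 0.24 and 0.06. Mrps18b had 48.4 and 49.0 CPM with high-fat diet, against 44.1 and 38.3 CPM with control diet, and Mrps18a had 18.9 and 18.5 CPM with high-fat diet, against 17.2 and 18.1 CPM with control diet. Mrps18c had 66.4 and 68.2 CPM with high-fat diet, against 56.7 and 72.8 CPM with control diet, and only here did the groups overlap. Mrps18a and Mrps30 carry small subunit names but sit in the large subunit, and Mrps36 is now known as a component of the 2-oxoglutarate dehydrogenase complex. Mrps30 had 34.5 and 33.6 CPM with high-fat diet, against 28.5 and 32.9 CPM with control diet, and a log2 fold change of 0.15. Mrps36 had 33.1 and 35.6 CPM with high-fat diet, against 28.1 and 34.2 CPM with control diet, and a log2 fold change of 0.14, and 4 pseudogene copies make its count uncertain. With these 3 genes placed by structure, the median was 0.10 for 50 large and 0.08 for 26 small subunit genes.

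The members were also split by origin, as their universal protein names give it, which counts Mrps18c as a bacterial homologue and Mrps18a and Mrps18b as specific to mitochondria. The 45 genes with a bacterial homologue had a median log2 fold change of 0.06, and the 31 genes specific to mitochondria had one of 0.13. Libraries did not overlap, with high-fat diet higher, for 35.6% of the genes with a bacterial homologue and for 58.1% of the genes specific to mitochondria. Over all kept genes this share was 26.1%. With high-fat diet lower, the shares were 8.89% and 6.45%, against 24.9% of all kept genes. The order of the medians was the same within each subunit. In the large subunit they were 0.12 for specific and 0.07 for homologous proteins, and in the small subunit 0.15 for specific and 0.04 for homologous proteins. These splits are descriptions and were not tested. Exon overlap concerned 10 members, 7 with a gene on the opposite strand and 3 only with one on the same strand, and the median was 0.12 with and 0.09 without overlap. No source used here states the strand setting of the counting, so reads in exons shared by genes may have been set aside as ambiguous. A pseudogene copy of at least 95% identity over at least 200 bases was found for 19 members, whose median was 0.04, against 0.11 for the other 58.

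Levels differed far more between members than between diets. The highest level per kilobase over the 4 libraries was 181 CPM per kb for Mrpl33, followed by Mrps18c with 131, Mrpl20 with 112 and Mrpl52 with 99.9. Mrpl33 had 75.8 and 86.2 CPM in the high-fat libraries, against 74.9 and 99.8 CPM in the control libraries, with overlapping groups. Mrpl20 had a log2 fold change of 0.07, Mrpl52 one of 0.12 and, of the next small subunit genes in level, Mrps33 and Mrps21 had -0.01 each. The lowest levels were 3.34 CPM per kb for Mrps11, 3.42 for Mrpl38 and 4.18 for Mrps34, so the highest level was 54.2 times the lowest. Next came Mrps25 at 4.64 and Mrpl19 at 4.91, which are among the longest genes. Of their exon bases 3536 of 6065 in Mrps25 and 1145 of 4996 in Mrpl19 overlap a gene on the opposite strand. If reads there were set aside as ambiguous, these levels are too low. The median was 18.2 CPM per kb in the large and 16.0 in the small subunit. The order of the members was nearly the same in every library, with Spearman's rho across the 77 genes between 0.986 and 0.996 for the 6 pairs of libraries. Genes are not independent replicates, and part of this likeness comes from the gene lengths, which all libraries share.

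**Figure D4:**
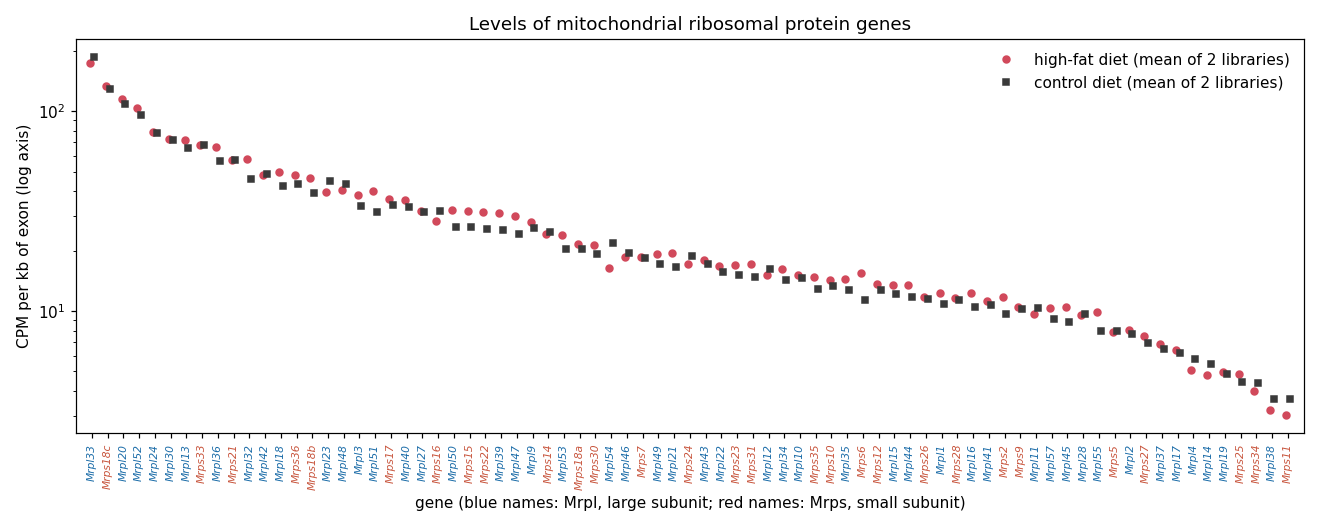
Mean level of each of the 77 genes in CPM per kilobase of exon, on a log axis, in high-fat libraries (circles) and control libraries (squares), with genes ordered by level. Levels run from 181 for Mrpl33 to 3.34 for Mrps11, and the symbols of both diets lie close together throughout.

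Fold changes were only weakly related to level across the members, with Pearson's r of 0.15 on the log2 scale. The relation with the GC content of the exons was an r of -0.40 over all 77 members, -0.53 in the large and -0.14 in the small subunit. Exon length, in which the members are much shorter than most genes, had an r of 0.21. With kept protein-coding genes cut by exon length into 3 classes of equal number, 67 of the 77 members fell in the shortest class, whose median log2 fold change over all its genes was 0.03. These correlations are across genes of the same 4 libraries and are given without a test.

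The other genes of mitochondrial translation were counted by lists. The 14 mitochondrial translation factors had a median log2 fold change of 0.15, with 11 above 0, 2 higher at an unadjusted p under 0.05 and 0 called by edgeR, DESeq2 or limma-voom. At that unadjusted p in edgeR 8.56% of all kept genes were higher and 8.46% lower, to be read beside the next lists too. Gfm1, an elongation factor, had 67.1 and 64.1 CPM with high-fat diet, against 58.7 and 53.3 CPM with control diet, and Mtif2, an initiation factor, had 51.7 and 53.1 CPM with high-fat diet, against 42.4 and 45.8 CPM with control diet. Neither gene had overlapping groups, and their adjusted p was 0.281 and 0.252 in edgeR. The 20 kept genes of mitochondrial DNA transcription and RNA processing had a median of 0.20, with 16 above 0, 4 higher and 1 lower at an unadjusted p under 0.05, and 0 called by any of the 3 tools. The smallest p of these belonged to Trmt10c, a subunit of mitochondrial ribonuclease P, with 75.9 and 80.7 CPM with high-fat diet, against 56.4 and 63.1 CPM with control diet, and an adjusted p of 0.112 in edgeR. Trmt5, a transfer RNA methyltransferase, followed with a log2 fold change of 0.30.

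Assembly factors, remaining ribosomal proteins and regulators lay nearer to 0. The 24 kept genes of ribosome assembly and rRNA modification had a median of 0.06, with 16 above 0, 1 higher at an unadjusted p under 0.05 and 0 called by edgeR, DESeq2 or limma-voom. In this list Gtpbp10, a GTPase of large subunit assembly, had a log2 fold change of 0.29 and Mtg2, another such GTPase, one of -0.32. The 6 mitochondrial ribosomal proteins without an Mrpl or Mrps name had a median of -0.02, with 3 above 0, 1 higher at an unadjusted p under 0.05 and 0 called by the 3 tools. Ptcd3 and Gadd45gip1, the members of that list with the smallest p, had log2 fold changes of 0.23 and -0.42. The 10 kept regulators of nuclear genes for mitochondria had a median of -0.05 with 4 above 0, 1 higher and 1 lower at an unadjusted p under 0.05, and 0 called by the 3 tools. Gabpa, the DNA-binding subunit of an ETS factor, had a log2 fold change of 0.26, and Pprc1, a coactivator, one of -0.41. The 16 proliferation genes had a median of 0.11, with 0 at an unadjusted p under 0.05 and 0 called by the 3 tools, and Ccnb1 and Pcna among them had 0.34 and 0.13.

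Genes of the cytosolic ribosome and of oxidative phosphorylation had lower medians. The 77 kept cytosolic ribosomal protein genes had a median log2 fold change of -0.14, with 13 above 0. At an unadjusted p under 0.05 in edgeR 24 were lower and 0 higher, where 8.46% of all genes were lower and 8.56% higher. At the adjusted threshold edgeR called 2 lower, where 0.29% of all genes were. DESeq2 called 13 lower, against 197 of all 12747 kept genes, and limma-voom called 0. The 77 kept nuclear subunits of oxidative phosphorylation had a median of -0.03, with 34 above 0, 12 lower and 1 higher at an unadjusted p under 0.05, and 0 called by edgeR, 2 by DESeq2 and 0 by limma-voom. Near-identical pseudogenes of the cytosolic ribosomal protein genes make those counts uncertain. The libraries within each diet also differed in these groups. The median log2 deviation from the mean of the 4 libraries was -0.13 and -0.01 in the high-fat libraries for cytosolic ribosomal protein genes, against -0.01 and 0.16 in the control libraries. For oxidative phosphorylation it was -0.05 and 0.00, against -0.06 and 0.13. Control library 2 was the highest library for 49 and 42 genes of these groups, and for 23 of the members. The difference between the members and these groups was not tested.

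**Figure D5:**
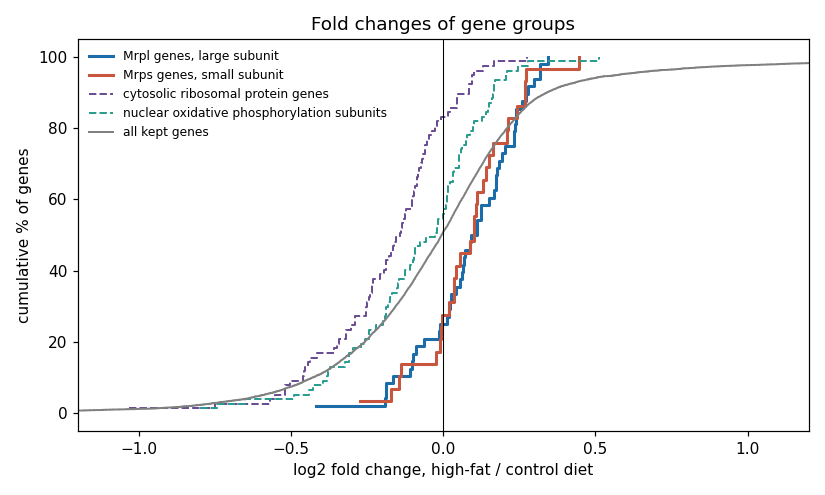
Cumulative percentage of genes by log2 fold change, high-fat over control diet, for Mrpl genes, Mrps genes, cytosolic ribosomal protein genes, nuclear subunits of oxidative phosphorylation and all kept genes. Both subunits share a median of 0.10, to the right of oxidative phosphorylation (-0.03) and cytosolic ribosomal proteins (-0.14).

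The summed markers of macrophages, of mesothelial cells and fibroblasts, and of neutrophils did not overlap between the diets, whereas those of B cells did. The summed level of 12 macrophage markers was 20451 and 24990 CPM in the high-fat libraries, against 27469 and 26471 CPM in the control libraries, and edgeR called 1 of them, Mertk, lower. The summed level of mesothelial and fibroblast markers, of which 14 of 18 were kept, was 175 and 87.9 CPM with high-fat diet, against 21.6 and 28.6 CPM with control diet. All 14 were above 0, and edgeR called 1, Lum, higher. Neutrophil markers, of which 10 of 14 were kept, summed to 81.7 and 68.1 CPM with high-fat diet, against 114 and 117 CPM with control diet, with Mmp9 and Csf3r called lower and Elane at 0 in every library. The 12 B cell markers summed to 118 and 217 CPM with high-fat diet, against 129 and 118 CPM with control diet, and 10 of them were highest in high-fat library 2. Igj, called higher, had 3.66 and 3.05 CPM with high-fat diet, against 0.596 and 1.21 CPM with control diet.

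The remaining marker lists were low in every library. Dendritic cell markers, 9 of 10 kept, summed to 27.9 and 34.5 CPM with high-fat diet, against 37.7 and 39.8 CPM with control diet, with Cd209a called lower by edgeR. Eosinophil markers, 4 of 7 kept, summed to 5.39 and 8.36 CPM with high-fat diet, against 12.3 and 21.8 CPM with control diet, with Alox15 called lower. Ear1, Epx and Prg2 of that list did not pass the filter on low counts, so the sum leaves them out. T and NK cell markers, 10 of 12 kept, summed to 6.53 and 28.8 CPM with high-fat diet, against 10.3 and 13.2 CPM with control diet. In this list edgeR called 0, limma-voom 0 and DESeq2 1 higher, against 157 of all 12747 kept genes. In edgeR 1 marker, Klrb1c, was lower at an unadjusted p under 0.05, where 8.46% of all kept genes were. Cd8a, next in order of p, had a log2 fold change of 2.68 ± 1.18 (SE) with an adjusted p of 0.351 in edgeR. It had only 14 and 101 reads in the high-fat libraries, against 9 and 8 in the control libraries, so the value rests mostly on high-fat library 2. Mast cell and basophil markers, 8 of 9 kept, summed to 68.4 and 89.3 CPM with high-fat diet, against 84.0 and 62.4 CPM with control diet. None of these passed at an unadjusted p under 0.05, the 3 tools called 0, and the smallest p belonged to Tpsb2 and Mcpt4 with log2 fold changes of -0.29 and 0.27. The part of these cells in the values of the mitochondrial ribosomal protein genes was not tested.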

How the data were processed

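The authors deposited 1 table of raw read counts per gene for each of the 4 libraries (whole numbers, not normalized) and the gene models behind them. TopHat2 2.0.10, Cufflinks 2.1.1, HTSeq and the mm9 build are named per the submitters' processing notes. No source used here gives the counting settings, strand included. The tables also hold rows that name no gene: reads without a feature made up 13.5% to 15.0% of all entries, ambiguous reads 0.664% to 0.823% and non-unique alignments 37.5% to 48.5%, and these rows stayed out of totals and tests.

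Counts were tested with edgeR 4.0.16 in R 4.3.3 (filterByExpr with a minimum count of 10 and total of 15, TMM scaling, robust quasi-likelihood test), with Benjamini-Hochberg adjustment over all 12747 kept genes and a threshold of 0.05. The replicates left 2 residual degrees of freedom before moderation. CPM uses the TMM-scaled total, and SE was taken as the size of the log2 fold change over the root of its F value. Alternatives were DESeq2 1.42.0, limma-voom (limma 3.58.1), other scaling and filters, a replicate block, removal of exon length and GC trends, no overlapping genes and each library left out. Only the main edgeR fit was tested on simulated data, with a common dispersion and planted changes larger than those of any member. The alternatives were not simulated. Pseudogene copies were found with BLAST+ 2.17.0 and overlaps with bedtools 2.31.1.

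The members, lists and tests were chosen with earlier results of these data known. Members named in the text are, per subunit, the 5 highest and 5 lowest by log2 fold change, the 3 highest and 3 lowest by level, and those with a special role or misleading name. Of each other list, genes past the threshold are named or, with none, the 2 with the smallest p. Divergent gene pairs, a few members and some list genes were named after their values were seen.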

Additional observations from a re-analysis of the deposited data

How the results depend on the processing

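The number of members past the adjusted threshold was 0 under all 15 alternatives. The median log2 fold change of the large subunit kept its direction and stayed within the replicate SD of 0.08, from 0.0335 to 0.169 with 1 library left out. That of the small subunit was 0.0510 without overlapping genes and 0.0372 to 0.141 with 1 library left out, against a replicate SD of 0.04. Large minus small was 0.0558 without overlapping genes and -0.0037 to 0.0273 with 1 library left out.

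The number of all genes past the threshold was 78, and 356 in DESeq2, 28 in limma-voom, 522 without a filter, 46 with a CPM filter, 174 with the exon length trend removed, 251 with that and the replicate block, 34 with GC content and exon length trends removed, and 15 to 831 with 1 library left out. The replicate block alone gave 113. Libraries of the same number deviated together with a correlation of 0.09, and nothing in the labels says that a number marks a shared batch, so the block is no paired result. With it, 15 members had an unadjusted p under 0.05, a level that 22.5% of all genes reached, and none passed the threshold.

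Of 522 values of 35 named members under the alternatives, 491 kept their direction and 31 in 16 members did not, 18 of these with a library left out. With GC content and exon length trends removed, Mrpl12 was at 0.00490, Mrpl14 at 0.0233, Mrpl23 at 0.0161, Mrpl38 at 0.0200, Mrpl4 at 0.0490, Mrps21 at 0.0432 and Mrps34 at 0.0866. Mrps21 was at 0.0808 with the length trend removed and at 0.0814 with the replicate block added. Mrps33 was at 0.0108 and 0.0170 in the same fits, at 0.00474 in limma-voom and at 0.00439 with the replicate block alone. With 1 library left out, Mrpl19 ranged from -0.0388 to 0.0886, Mrpl20 from -0.105 to 0.253, Mrpl33 from -0.312 to 0.109, Mrpl38 from -0.412 to 0.0548, Mrpl4 from -0.396 to 0.0274, Mrpl52 from -0.0688 to 0.328, Mrps12 from -0.00727 to 0.213, Mrps14 from -0.184 to 0.140, Mrps18c from -0.125 to 0.244, Mrps21 from -0.0685 to 0.0455, Mrps33 from -0.189 to 0.185, Mrps34 from -0.367 to 0.102 and Mrps36 from -0.00552 to 0.288. The causes were not tested.

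The lowest count of a member in a library was 109. All intervals rest on 2 libraries per diet. A fit with 1 library left out assumes that the lone library of its diet varies like the other pair.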
